A study of Homo sapiens with 10 samples.

Results

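The hypoxia response and glycolysis genes are a set of 44 genes chosen by name: the factors that carry the cell's response to low oxygen, the transcripts those factors are known to induce, and the transporters and enzymes of glucose breakdown. All 44 were present among the 22003 features of the deposited count table, and all 44 passed the filter on low counts. They were measured by RNA sequencing in HaCaT, an immortal line of human skin keratinocytes that is labelled wild type and, for its tissue, mucosa. LBP is a polysaccharide-glycoprotein preparation from Lycium barbarum, the goji plant. The 4 groups were LBP pretreatment for 24 h followed by 12 Gy of radiation (irradiated LBP, n = 3), vehicle followed by 12 Gy (irradiated vehicle, n = 3), LBP without irradiation (LBP, n = 2) and vehicle without irradiation (vehicle, n = 2). RNA was collected 3 h after exposure. The sources used here state neither the dose of LBP nor the oxygen tension of the cultures. Every group was grown in RPMI 1640 with serum under 5% CO2.

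In the hypoxia response, hypoxia-inducible factor (HIF) pairs an oxygen-labile alpha subunit, HIF1A or EPAS1, with a stable beta subunit. Prolyl hydroxylases of the EGLN family, which need oxygen, iron and 2-oxoglutarate, mark the alpha subunit for destruction, so HIF is controlled mainly through its protein rather than its transcript. Its targets cover pH control, red cell and vessel growth, collagen modification, clearance of mitochondria and almost every step of glycolysis, while many glycolytic transcripts are also abundant in proliferating cells with normal oxygen. Keratinocytes sit in an epidermis with modest oxygen and use glycolysis heavily.

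Libraries held 31830506 to 62986831 counts, and the 44 genes took 2.03% to 2.59% of them. Levels are library-scaled CPM, that is counts relative to the size of the library with TMM scaling factors. Differences between groups are log2 fold changes ± standard error (SE) from edgeR's quasi-likelihood test, with p-values adjusted by the Benjamini-Hochberg method over all 14799 features tested; a gene was called where the adjusted p was under 0.05. Group levels are means ± standard deviation (SD). Some genes are also counted by an unadjusted p under 0.05, or by DESeq2, another test of counts. The shares of all features by these measures are not given, so no excess is read from those counts. Within a group the libraries are labelled as repeated experiments with no word on whether cultures were separate. The p-values therefore cover the spread among these libraries alone, and that spread may be technical. The 8 keratinocyte markers, led by KRT5 and KRT14, summed to 12900 to 13600 CPM in irradiated LBP, 11200 to 12800 in irradiated vehicle, 14100 to 14500 in LBP and 11900 to 12400 CPM in vehicle libraries. Of these 8, TP63 rose with LBP in irradiated cells (0.41 ± 0.08, adjusted p = 0.023), or 12.5% against 2.79% of all tested features called higher. The 6 markers of simple and mucosal epithelium summed to 5130 to 5820 CPM in irradiated LBP and 5890 to 6720 CPM in irradiated vehicle libraries. Without irradiation they summed to 5860 to 6810 CPM in LBP and 6560 to 6870 CPM in vehicle libraries. With LBP in irradiated cells MUC1 rose by 0.58 ± 0.10 and KRT18 fell by 0.36 on the log2 scale. These calls were 33.3% of the list, against 4.36% of all tested features called in either direction. The part of these markers in the results below was not tested. The marker lists of fibroblasts, endothelium, melanocytes and leukocytes each summed to at most 5.97 CPM in any library. DCN, PECAM1 and TYR, markers of fibroblasts, endothelium and melanocytes, had 0 counts in every library. In such bulk samples, fewer cells of a type and less RNA per cell cannot be told apart.

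The sequences around the starts of the genes most clearly higher with LBP are shown first, because HIF binds a short core that can be read directly in them. The motif searched was ACGTG or GCGTG on both strands, with overlapping matches counted as 1 site. For each member only the first start listed was searched, so a count of 0 does not cover other starts of that gene. The palindrome CACGTG, a site for other basic helix-loop-helix factors, contains ACGTG on both strands and so also counts. Of the genes called with LBP in irradiated cells, the 4 with the smallest p that the promoter table holds are printed, from 250 bases before to 50 after the start, on the strand of the gene, from RefSeq on GRCh38.p14, with matches in capitals. ALDOC lies at chr17:28576846-28577145 on the minus strand and has 4 sites, BNIP3 at chr10:131981874-131982173 on the minus strand and has 5, CA9 at chr9:35673678-35673977 on the plus strand and has 1, and PDK1 at chr2:172555123-172555422 on the plus strand and has 0.
ALDOC: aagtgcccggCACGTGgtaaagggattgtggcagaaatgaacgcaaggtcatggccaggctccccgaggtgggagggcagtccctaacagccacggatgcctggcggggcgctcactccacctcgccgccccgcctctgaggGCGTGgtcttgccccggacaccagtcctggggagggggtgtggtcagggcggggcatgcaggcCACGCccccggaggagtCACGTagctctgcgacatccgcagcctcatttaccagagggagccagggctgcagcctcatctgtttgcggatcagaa
BNIP3: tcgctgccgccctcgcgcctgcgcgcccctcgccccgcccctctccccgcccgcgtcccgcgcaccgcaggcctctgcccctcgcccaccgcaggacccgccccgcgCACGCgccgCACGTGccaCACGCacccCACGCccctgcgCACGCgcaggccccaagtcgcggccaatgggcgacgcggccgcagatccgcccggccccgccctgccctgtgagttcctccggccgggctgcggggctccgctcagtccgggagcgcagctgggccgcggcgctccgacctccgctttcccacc
CA9: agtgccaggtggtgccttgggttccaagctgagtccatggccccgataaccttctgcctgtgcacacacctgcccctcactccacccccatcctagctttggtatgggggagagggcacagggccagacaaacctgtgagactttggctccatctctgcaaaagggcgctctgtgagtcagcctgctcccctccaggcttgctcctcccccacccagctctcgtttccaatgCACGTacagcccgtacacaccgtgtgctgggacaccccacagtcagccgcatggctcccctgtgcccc
PDK1: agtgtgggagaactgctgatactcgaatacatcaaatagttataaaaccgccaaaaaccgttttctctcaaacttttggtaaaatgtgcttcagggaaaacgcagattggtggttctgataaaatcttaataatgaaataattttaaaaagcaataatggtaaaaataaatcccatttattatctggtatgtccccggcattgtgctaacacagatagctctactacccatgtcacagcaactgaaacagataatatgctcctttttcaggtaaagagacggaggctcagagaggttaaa

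The table held windows for 40 of the 44 genes; VEGFA, NDRG1, BNIP3L and SLC2A3 had no entry. At least 1 match stood in 31 of the 40 windows (77.5%), against 48.4% of all 35116 promoters in the table and 62.5% of the 10709 promoters of features tested here. Among the genes called with LBP in irradiated cells, 7 of 8 windows had a match, and among the other members 24 of 32 did. The narrower ACGTG stood in 20 of the 40 windows, against 26.3% of the promoters of tested features. The members' windows were richer in G and C, with a median of 69.7% against 65.0% for the promoters of tested features, and the part of base composition in the shares was not tested. A match is a string of letters and not a measured binding site.

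The first comparison set cells given LBP before 12 Gy against cells given vehicle before 12 Gy. Of the 44 genes, 10 rose in irradiated LBP cells relative to irradiated vehicle cells and none fell, which is 22.7% of the members against 2.79% of all tested features called higher. The 44 genes were chosen with earlier results of these data known, so this share is not from a list chosen blind. The 10 were CA9, BNIP3, ALDOC, NDRG1, BNIP3L, PDK1, SLC2A1, HK2, P4HA1 and GPI. The median log2 fold change of the members was 0.26, against 0.005 for all tested features, and 42 of 44 values were above 0. In 21 members every irradiated LBP library lay above every irradiated vehicle library, 47.7% against 13.9% of all tested features. Of the 10 calls, those of CA9, BNIP3, ALDOC, NDRG1, BNIP3L and SLC2A1 held in all 20 alternative settings, while P4HA1 lost its call in 5, HK2 in 2, PDK1 in 1 and GPI in 10. HK2 did so without irradiated vehicle replicate 1 or 2 (adjusted p = 0.085 and 0.077). P4HA1 did so without irradiated LBP replicate 1 or 3 or irradiated vehicle replicate 1 or 3 (0.052 to 0.11), and GPI without irradiated LBP replicate 3, any irradiated vehicle library or either vehicle library (0.052 to 0.13).

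The same question in cells that were not irradiated gave 6 members higher in LBP than in vehicle cells, again with none lower, or 13.6% of members against 0.541% of all tested features. The 6 were CA9, BNIP3, ALDOC, NDRG1, BNIP3L and P4HA1. This comparison shares no library with the first. All 6 of its calls (100% of them) were among the 10 of the irradiated comparison (60% of those). The median over members was 0.20, against 0.010 for all features, and 35 of 44 values were above 0. LBP libraries lay entirely above vehicle libraries for 26 members, 59.1% against 23.2% of all tested features. They lay entirely below for 5 members, EGLN3, ANKRD37, KDM3A, BHLHE40 and HK1, none of them called. The share of all features lying below was not computed. Only the calls of BNIP3 and ALDOC held in all 20 alternative settings here. CA9 lost its call whenever 1 of the 4 libraries compared was left out (adjusted p from 0.056 to 0.17), P4HA1 in 8 settings, BNIP3L in 6 and NDRG1 in 1. P4HA1 lost it without any of those 4 or irradiated vehicle replicate 1 (0.064 to 0.21), and BNIP3L without LBP replicate 1 or either vehicle library (0.12 to 0.17).

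**Figure D1:**
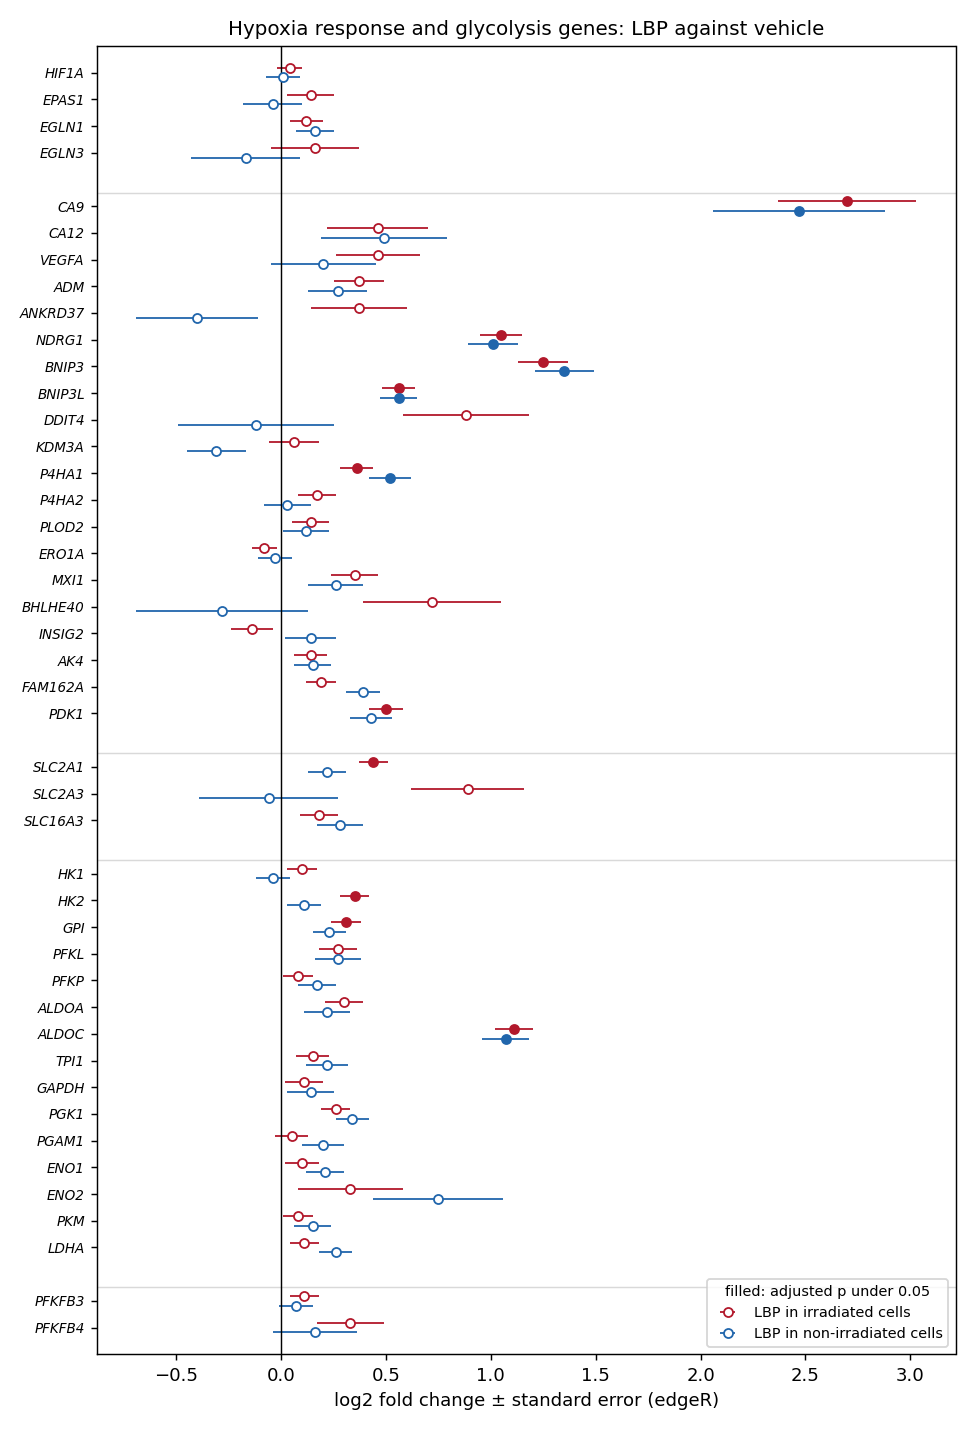
Log2 fold change ± SE of each of the 44 genes with LBP in irradiated cells (red, irradiated LBP over irradiated vehicle) and in non-irradiated cells (blue, LBP over vehicle), with filled points for an adjusted p under 0.05 and lines between the groups of genes by role. CA9 stands apart at 2.70 and 2.47, BNIP3, ALDOC and NDRG1 lie between 1.01 and 1.35 in both comparisons, and HIF1A stays at 0.04 and 0.01.

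The 4 alpha subunits and oxygen sensors gave no call with LBP in either setting, with 0 of 4 at an unadjusted p under 0.05 and 0 called by DESeq2 in both. Of all tested features 4.36% were called in irradiated and 0.804% in non-irradiated cells, so no call among 4 genes is near those shares. HIF1A, the broadly expressed alpha subunit, had 303, 298 and 320 CPM in irradiated LBP libraries, 291, 306 and 296 CPM in irradiated vehicle libraries, 323 and 288 CPM in LBP libraries and 299 and 306 CPM in vehicle libraries. All 4 groups overlapped. The LBP difference was 0.04 ± 0.06 in irradiated cells (95% interval -0.09 to 0.18, adjusted p = 0.72) and 0.01 ± 0.08 in non-irradiated cells (adjusted p = 0.96). EPAS1, the HIF-2 alpha subunit, had 11.4 ± 0.63 CPM in irradiated LBP and 10.4 ± 0.44 CPM in irradiated vehicle cells, and differed by 0.14 ± 0.11 (adjusted p = 0.50). Per length, EPAS1 had 2.11% to 2.95% of the FPKM (fragments scaled by both transcript length and library depth) of HIF1A over the 10 libraries.

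EGLN1, the main prolyl hydroxylase acting on HIF, had differences of 0.12 ± 0.08 with LBP in irradiated and 0.16 ± 0.09 in non-irradiated cells. EGLN3, a prolyl hydroxylase that HIF itself induces strongly in many cell types, had only 43 to 73 counts per library. Its values were 0.16 ± 0.21 with LBP in irradiated and -0.17 ± 0.26 in non-irradiated cells. Neither passed (adjusted p from 0.40 to 0.82 over these 4 values).

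Of the 20 HIF targets, 6 rose with LBP in irradiated cells, or 30% against 2.79% of all tested features called higher. In non-irradiated cells 5 rose, or 25% against 0.541%. The medians were 0.37 and 0.23. CA9, a cell-surface carbonic anhydrase that counters acidification and is among the most HIF-dependent transcripts known, had 129, 63 and 94 counts in irradiated LBP libraries and 15, 9 and 26 in irradiated vehicle libraries. In CPM these were 2.71, 1.94 and 2.13 in irradiated LBP libraries against 0.368, 0.190 and 0.477 in irradiated vehicle libraries. The change was 2.70 ± 0.33, or 6.48-fold (adjusted p = 0.0010). Without irradiation CA9 had 1.64 and 1.66 CPM in LBP libraries against 0.184 and 0.382 CPM in vehicle libraries, a change of 2.47 ± 0.41 (adjusted p = 0.015). The groups did not overlap in either comparison, but the transcript remained scarce, at rank 11652 of 22003 features by mean FPKM, and its size depends on the handling of low values: on the log2(FPKM + 1) scale the difference was as small as 0.93 and 0.71. CA9 lies at chromosome 9, 35673856 to 35681159, on the plus strand of GRCh38 and overlaps ARHGEF39 on the other strand; the strand setting of the counting is not given in the sources used here, so reads of the pair may not be separable.

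CA12, another membrane carbonic anhydrase, did not pass in either comparison. It averaged 1.59 ± 0.42 CPM in irradiated LBP and 1.16 ± 0.21 CPM in irradiated vehicle cells, which was 0.46 ± 0.24 apart on the log2 scale (adjusted p = 0.29), and the libraries overlapped.

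BNIP3 and BNIP3L encode related outer-membrane proteins that mark mitochondria for removal by autophagy, and both rose. BNIP3 had 82.0, 72.6 and 94.0 CPM in irradiated LBP libraries, against 34.9, 38.1 and 31.9 CPM in irradiated vehicle libraries. In non-irradiated cells it had 85.9 and 79.5 CPM in LBP libraries, against 37.0 and 28.2 CPM in vehicle libraries. Every LBP library, irradiated or not, lay above every vehicle library. The changes were 1.25 ± 0.12 (adjusted p = 0.00013) and 1.35 ± 0.14 (adjusted p = 0.00053). BNIP3 has 39 pseudogenes named after it in GENCODE v29, so the assignment of some reads is uncertain. BNIP3L averaged 67.9 ± 3.8 CPM in irradiated LBP and 46.0 ± 3.2 CPM in irradiated vehicle cells, and 64.5 ± 5.2 CPM in LBP against 43.6 ± 0.18 CPM in vehicle cells. Its change was 0.56 in both comparisons (adjusted p = 0.0022 in irradiated and 0.014 in non-irradiated cells).

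NDRG1, a stress-responsive protein of trafficking and differentiation whose transcript is also raised by iron chelation, had 213, 179 and 243 CPM in irradiated LBP libraries, against 95, 101 and 110 CPM in irradiated vehicle libraries. Without irradiation it had 201 CPM in both LBP libraries, against 99.3 and 100 CPM in vehicle libraries. The level about doubled in each setting, 2.08-fold in irradiated cells (adjusted p = 0.00012) and 2.01-fold in non-irradiated cells (adjusted p = 0.0012).

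PDK1, the kinase that holds pyruvate back from the mitochondrial pyruvate dehydrogenase, rose in irradiated cells to 31.9 ± 2.1 CPM with LBP, against 22.6 ± 1.2 CPM with vehicle (0.50 ± 0.08, adjusted p = 0.0070). In non-irradiated cells PDK1 had 29.4 ± 2.5 CPM with LBP and 21.8 ± 0.31 CPM with vehicle, a difference of 0.43 ± 0.10 that did not pass with edgeR (adjusted p = 0.079) and did with DESeq2 (adjusted p = 0.015). With limma on log2(FPKM + 1) that difference was 0.20. P4HA1, the catalytic subunit of the collagen prolyl hydroxylase, rose by 0.36 ± 0.08 in irradiated (adjusted p = 0.031) and by 0.52 ± 0.10 in non-irradiated cells (adjusted p = 0.031). Its relative P4HA2 stood at 0.17 ± 0.09 and 0.03 ± 0.11, and PLOD2, which hydroxylates collagen lysines, at 0.14 ± 0.09 and 0.12 ± 0.11, none of which passed.

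Several targets often used as hypoxia markers did not pass with edgeR on all libraries. VEGFA, the vascular growth factor, had 108, 72.9 and 155 CPM in irradiated LBP libraries and 76.7, 85.9 and 81.2 CPM in irradiated vehicle libraries. The groups overlapped, with a difference of 0.46 ± 0.20 (adjusted p = 0.21), and in non-irradiated cells it was 0.20 ± 0.25 (adjusted p = 0.78). ADM, the vasodilator peptide adrenomedullin, which in irradiated cells passed with DESeq2 (adjusted p = 0.032) and without irradiated LBP replicate 2, stood at 0.37 ± 0.12 and 0.27 ± 0.14, and MXI1, a MYC antagonist, at 0.35 ± 0.11 and 0.26 ± 0.13, with adjusted p from 0.087 to 0.44. ERO1A, an oxidase of protein folding, had differences of -0.08 ± 0.06 and -0.03 ± 0.08. ANKRD37, a short transcript strongly induced by hypoxia in many cells, had 0.37 ± 0.23 in irradiated and -0.40 ± 0.29 in non-irradiated cells on 37 to 82 counts per library. KDM3A, a histone demethylase, had 0.06 ± 0.12 and -0.31 ± 0.14, and its LBP libraries lay below its vehicle libraries in non-irradiated cells without passing (adjusted p = 0.37). INSIG2, AK4 and FAM162A, of sterol sensing, mitochondrial nucleotide balance and mitochondrial cell death, had values from -0.14 to 0.39 over both comparisons, the highest being FAM162A in non-irradiated cells (adjusted p = 0.057). FAM162A passed there with DESeq2 (adjusted p = 0.0045), with no filter (0.048), with the replicate block (0.044), and without irradiated LBP replicate 1 (0.047) or 2 (0.043).

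Irradiated LBP replicate 3 stood apart for several of these transcripts. DDIT4, an inhibitor of mTORC1 that responds to hypoxia, glucocorticoids and amino acid stress, had 116, 147 and 351 CPM in irradiated LBP replicates 1 to 3, against 118, 101 and 113 CPM in irradiated vehicle libraries. BHLHE40, a transcriptional repressor of the clock and hypoxia response, had 51.5, 58.2 and 164 CPM in irradiated LBP libraries, against 60.2, 50.5 and 55.7 CPM in irradiated vehicle libraries. The third library was also the highest of its group for VEGFA and SLC2A3. The differences in irradiated cells were 0.88 ± 0.30 for DDIT4 and 0.72 ± 0.33 for BHLHE40 (adjusted p = 0.12 and 0.23). Without that library they were 0.24 for DDIT4, -0.02 for BHLHE40, 0.15 for VEGFA and 0.37 for SLC2A3. Leaving out another library of the group instead brought some past the threshold: DDIT4 without irradiated LBP replicate 1 (1.17, adjusted p = 0.034), and VEGFA and SLC2A3 without irradiated LBP replicate 2 (0.69 and 1.11, adjusted p = 0.025 and 0.028).

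Glucose and lactate transport gave 1 call of 3 genes with LBP in irradiated cells, or 33.3% against 2.79% of all tested features. In non-irradiated cells there was no call, against 0.541% of all tested features. There 2 of the 3 had an unadjusted p under 0.05, and DESeq2 called none. SLC2A1, which encodes the ubiquitous glucose transporter GLUT1, had 159, 154 and 184 CPM in irradiated LBP libraries, against 125, 118 and 125 CPM in irradiated vehicle libraries. Those groups did not overlap, and the change was 0.44 ± 0.07 (adjusted p = 0.0072). In non-irradiated cells SLC2A1 had 143 and 149 CPM in LBP libraries against 128 and 122 CPM in vehicle libraries, which differed by 0.22 ± 0.09 (adjusted p = 0.29). SLC2A3, the high-affinity transporter GLUT3, stood at 0.89 ± 0.27 in irradiated cells (adjusted p = 0.083), with 8.70, 7.64 and 18.7 CPM in irradiated LBP and 7.15, 6.12 and 5.80 CPM in irradiated vehicle libraries, and at -0.06 ± 0.33 in non-irradiated cells. SLC16A3, the lactate exporter MCT4, had 0.18 ± 0.09 and 0.28 ± 0.11, neither of which passed.

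Among the 15 glycolytic enzymes 3 rose with LBP in irradiated cells, ALDOC, HK2 and GPI, or 20% against 2.79% of all tested features. In non-irradiated cells 1 rose, ALDOC, or 6.67% against 0.541%. DESeq2 called 6 and 2 of the 15, and 7 of the 20 HIF targets in each setting, all higher. The shares of all features above are edgeR's, and those of DESeq2 are not given. The medians of the enzymes were 0.15 and 0.22, against 0.37 and 0.23 for the 20 HIF targets. The gap between these medians was present in irradiated cells and close to nil in non-irradiated cells. There the called shares were 25% of the HIF targets and 6.67% of the enzymes, against 30% and 20% in irradiated cells. Among the targets, DDIT4, BHLHE40 and VEGFA stood at 0.24, -0.02 and 0.15 in irradiated cells without irradiated LBP replicate 3. The gap is given as a description, and neither it nor its dependence on radiation was tested. All 15 values were above 0 in irradiated cells and 14 of 15 in non-irradiated cells.

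ALDOC, the aldolase isoform typical of brain, had 54.4, 56.6 and 61.5 CPM in irradiated LBP libraries, against 27.1, 24.4 and 28.5 CPM in irradiated vehicle libraries. In non-irradiated cells it had 53.3 and 52.3 CPM in LBP libraries, against 27.7 and 22.7 CPM in vehicle libraries. The groups were well apart in both comparisons. The changes were 1.11 ± 0.09 (2.16-fold, adjusted p = 4.5e-05) and 1.07 ± 0.11 (2.10-fold, adjusted p = 0.00046), which gave ALDOC the smallest p of the 44 genes in both. ALDOC lies at chromosome 17, 28573115 to 28577264, on the minus strand of GRCh38 and overlaps AC005726.1 on the same strand and AC005726.4 on the other, so the assignment of reads among them is uncertain.

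HK2, the inducible hexokinase that commits glucose to the cell, rose in irradiated cells to 118 ± 7.1 CPM with LBP, against 92.7 ± 5.2 CPM with vehicle (0.35 ± 0.07, adjusted p = 0.017). In non-irradiated cells its difference was 0.11 ± 0.08 (adjusted p = 0.59). GPI, the isomerase of the step after hexokinase, rose in irradiated cells to 707 ± 49 CPM with LBP against 572 ± 28 CPM with vehicle (0.31 ± 0.07, adjusted p = 0.030). GPI differed by 0.23 ± 0.08 in non-irradiated cells (adjusted p = 0.26).

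**Figure D2:**
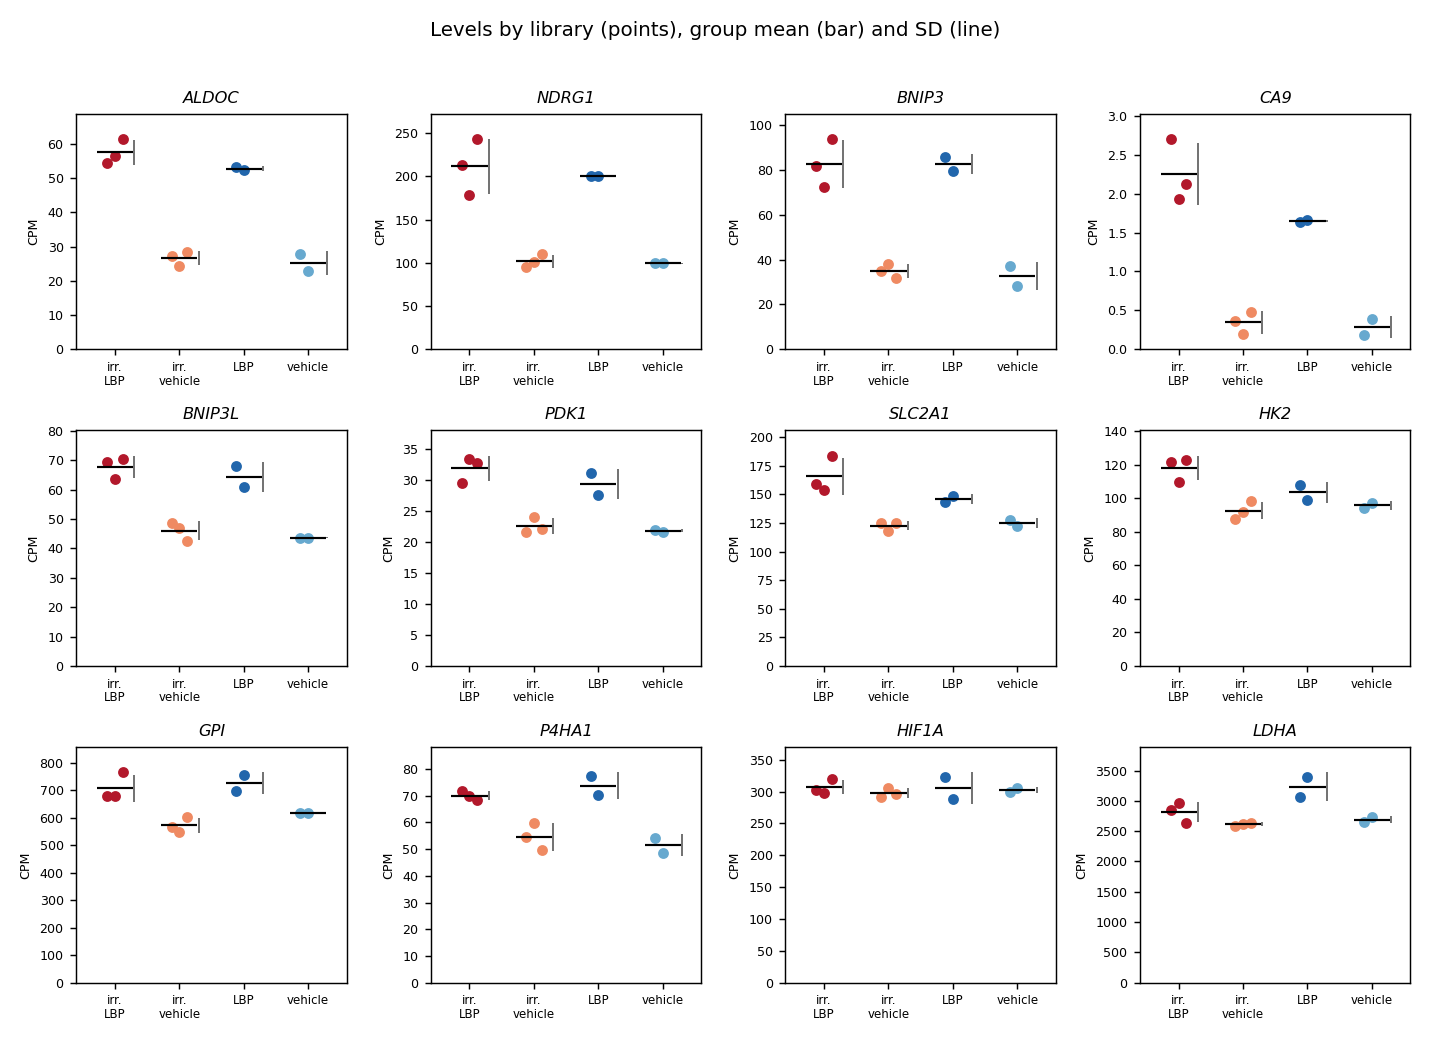
CPM in each library (points) with the group mean (bar) and SD (line) for the 10 genes called with LBP in irradiated cells, in order of p, and for HIF1A and LDHA, with irradiated LBP left of irradiated vehicle and LBP left of vehicle. ALDOC, BNIP3 and NDRG1 stand about 2-fold higher in both LBP groups, while the groups of HIF1A overlap between 288 and 323 CPM.

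None of the abundant enzymes of lower glycolysis passed in either LBP comparison with edgeR. GAPDH, the dehydrogenase of the middle of the pathway, averaged 4580 ± 480 CPM in irradiated LBP and 4230 ± 160 CPM in irradiated vehicle cells, apart by 0.11 ± 0.09 (95% interval -0.09 to 0.31, adjusted p = 0.51). LDHA, which turns pyruvate into lactate, had 2850, 2960 and 2630 CPM in irradiated LBP libraries and 2580, 2620 and 2640 CPM in irradiated vehicle libraries. The highest vehicle library exceeded the lowest LBP library, and the difference was 0.11 ± 0.07 (95% interval -0.04 to 0.26, adjusted p = 0.39). In non-irradiated cells LDHA had 3060 and 3400 CPM in LBP libraries against 2650 and 2730 CPM in vehicle libraries, 0.26 ± 0.08 (adjusted p = 0.20). ENO1, an enolase, and PKM, the pyruvate kinase, stood at 0.10 ± 0.08 and 0.08 ± 0.07 in irradiated cells and at 0.21 ± 0.09 and 0.15 ± 0.09 in non-irradiated cells. PGK1, a phosphoglycerate kinase and classical HIF target, came closer, at 0.26 ± 0.07 (adjusted p = 0.055) and 0.34 ± 0.08 (adjusted p = 0.095), and passed with DESeq2 in both comparisons.

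The remaining enzymes did not pass with edgeR. PFKL and PFKP, subunits of phosphofructokinase, had 0.27 ± 0.09 and 0.08 ± 0.07 in irradiated cells and 0.27 ± 0.11 and 0.17 ± 0.09 in non-irradiated cells. ALDOA, the aldolase of most tissues, had 0.30 ± 0.09 in irradiated (adjusted p = 0.086) and 0.22 ± 0.11 in non-irradiated cells. In irradiated cells DESeq2 called both PFKL (adjusted p = 0.040) and ALDOA (0.015), as did edgeR with the replicate block (0.025 and 0.048). TPI1, PGAM1 and HK1, of the triose, phosphoglycerate and hexokinase steps, had 0.15, 0.05 and 0.10 in irradiated and 0.22, 0.20 and -0.04 in non-irradiated cells. ENO2, the enolase typical of neurons, had 1.91, 2.00 and 2.99 CPM in irradiated LBP libraries and 1.67, 2.07 and 1.76 CPM in irradiated vehicle libraries, which overlapped (0.33 ± 0.25). In non-irradiated cells ENO2 had 2.21 and 2.86 CPM with LBP against 1.95 and 1.11 CPM with vehicle, 0.75 ± 0.31 apart without passing (adjusted p = 0.32). PFKFB3 and PFKFB4, which make the activator of phosphofructokinase, stood at 0.11 ± 0.07 and 0.33 ± 0.16 in irradiated and at 0.07 ± 0.08 and 0.16 ± 0.20 in non-irradiated cells; neither had an unadjusted p under 0.05 or a call by DESeq2. GAPDH, PGAM1, PKM, ENO1, TPI1 and LDHA have 62, 13, 5, 4, 4 and 6 pseudogenes named after them in GENCODE v29, and how reads shared with these copies were counted is not given in the sources used here.

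Per length, the genes called with LBP by edgeR on all libraries were not the most abundant members. This depended on the method: in irradiated cells DESeq2 also called ALDOA and PGK1, at 941 and 157 FPKM. The replicate block also called ALDOA there. GAPDH, PKM, ENO1, LDHA and ALDOA averaged 3160, 1820, 1600, 1270 and 941 FPKM over the 4 groups and had LBP differences of 0.08 to 0.30 in irradiated cells. Of the called genes, GPI was the most abundant at 138 FPKM, and the others ran from 0.626 FPKM for CA9 to 44.5 FPKM for NDRG1.

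**Figure D3:**
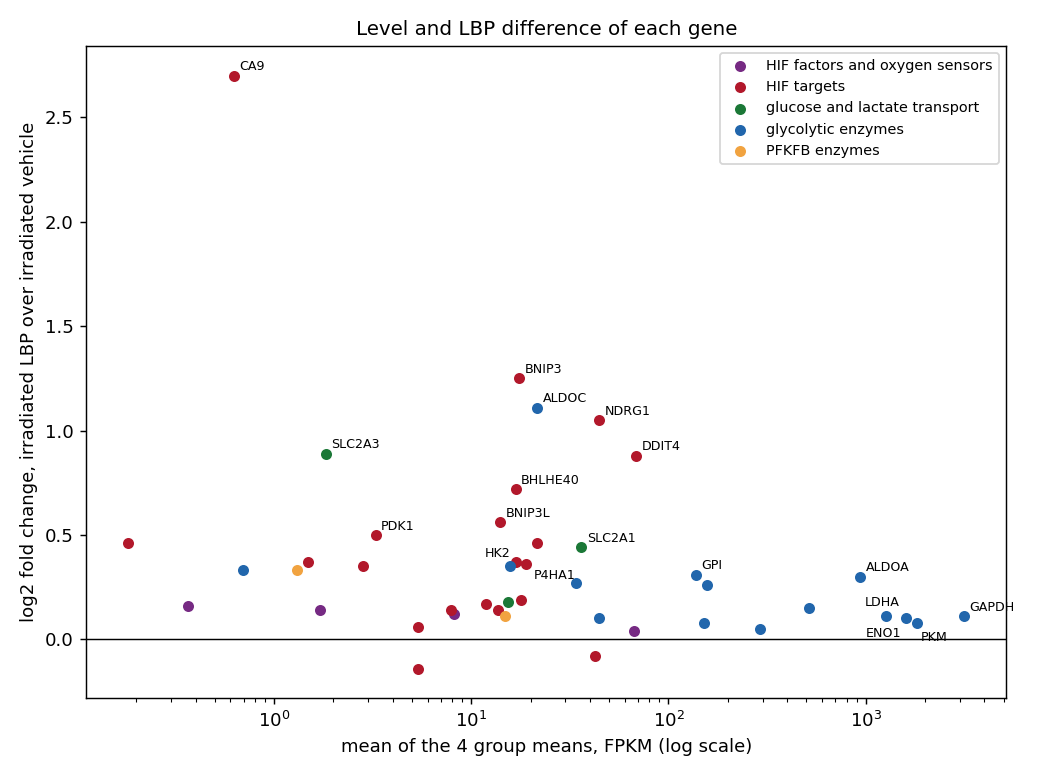
Log2 fold change with LBP in irradiated cells against the mean of the 4 group means in FPKM (log axis) for the 44 genes, coloured by role. The most abundant enzymes, from ALDOA at 941 to GAPDH at 3160 FPKM, lie at 0.30 or lower, and the values above 1.00 belong to CA9, BNIP3, ALDOC and NDRG1.

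Related genes were compared within each library as the FPKM of one as a percentage of the other, a ratio that does not depend on library scaling; no test was run on these ratios. ALDOC had 3.20%, 3.15% and 3.00% of the FPKM of ALDOA in irradiated LBP libraries, against 1.77%, 1.79% and 1.74% in irradiated vehicle libraries. In non-irradiated cells the ratio was 2.98% and 2.40% with LBP, against 1.66% and 1.30% with vehicle. BNIP3 had 137% to 159% of BNIP3L in the 5 LBP libraries, irradiated or not, against 75.2% to 101% in the 5 vehicle libraries.

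CA9 had 400% to 747% of CA12 in the LBP libraries, against 66.2% to 161% in the vehicle libraries. For these 3 pairs no LBP library overlapped a vehicle library. HK2 had 38.0% to 45.1% of HK1 in irradiated LBP libraries against 33.4% to 35.0% in irradiated vehicle libraries. In non-irradiated cells it had 38.2% and 33.7% with LBP against 31.8% and 32.9% with vehicle, again without overlap. ENO2 relative to ENO1 overlapped in both settings. SLC2A3 relative to SLC2A1 overlapped in irradiated cells, and in non-irradiated cells it was 4.72% and 3.70% with LBP, below the 5.17% and 5.12% with vehicle. Not every pair computed is described. P4HA1 had 143% to 152% of P4HA2 in irradiated LBP libraries, within the 126% to 187% in irradiated vehicle libraries. Without irradiation it had 186% and 208% with LBP against 147% and 168% with vehicle. PFKP had 388% to 430% of PFKL in irradiated LBP libraries, below the 444% to 490% in irradiated vehicle libraries. Without irradiation PFKP had 421% and 459% with LBP, below the 471% and 474% with vehicle.

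**Figure D4:**
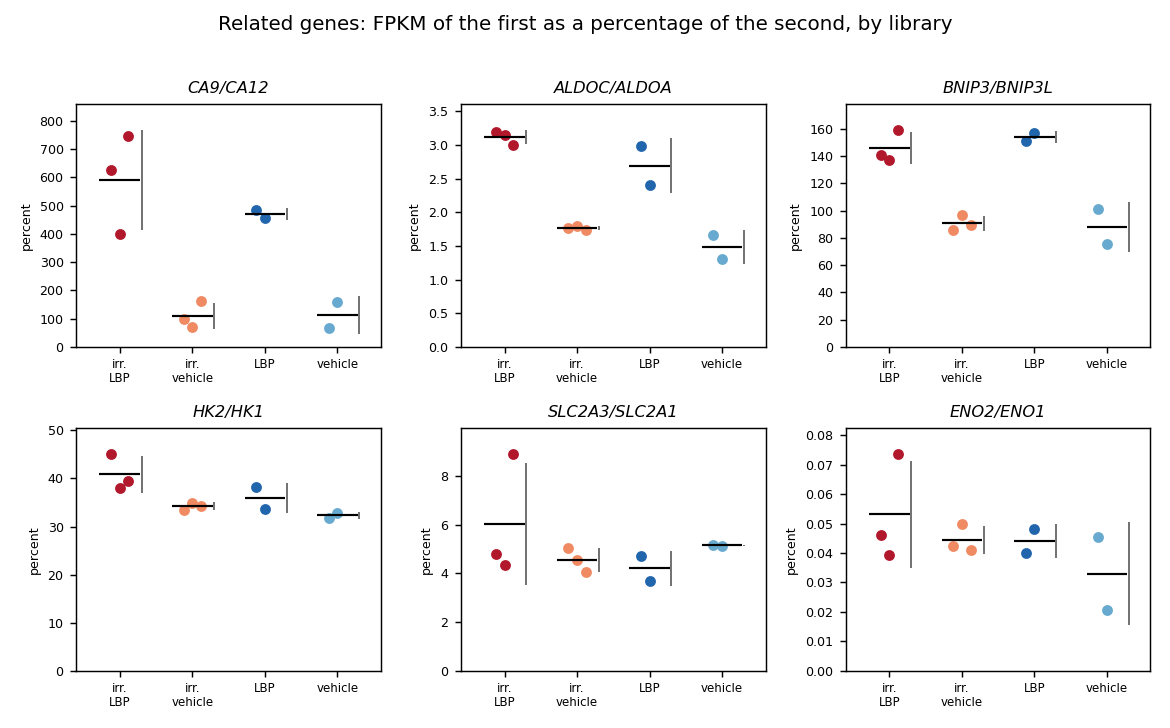
FPKM of the first gene as a percentage of the second in each library (points), with group mean (bar) and SD (line), for 6 pairs of related genes, each LBP group left of its vehicle group. ALDOC relative to ALDOA lies between 2.40% and 3.20% in LBP libraries and between 1.30% and 1.79% in vehicle libraries, whereas ENO2 relative to ENO1 overlaps.

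Whether LBP acted differently with and without radiation was tested as an interaction, the LBP difference with radiation less the LBP difference without it. None of the 44 genes passed, where 0.0135% of all tested features did, and 2 members had an unadjusted p under 0.05; DESeq2 called none. These were SLC2A3 (0.95 ± 0.43) and HK2 (0.24 ± 0.11), with an adjusted p of 0.60 each. For the genes called in irradiated cells only, the interaction was 0.07 ± 0.13 for PDK1, 0.21 ± 0.11 for SLC2A1, 0.24 ± 0.11 for HK2 and 0.07 ± 0.11 for GPI, so their calls are not shown to differ between the settings. For BNIP3, ALDOC, NDRG1 and BNIP3L it lay between -0.10 and 0.04.

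The 2 radiation comparisons asked what 12 Gy did within 3 h. Neither moved a member past the threshold. Without LBP, none of the 44 genes passed, where 0.439% of all tested features did; 3 had an unadjusted p under 0.05, and DESeq2 called none. These 3 were SLC16A3 (0.28 ± 0.10), MXI1 (0.29 ± 0.12) and INSIG2 (0.26 ± 0.11), all higher in irradiated vehicle than in vehicle cells. The member values ran from -0.22 for KDM3A to 0.36 for VEGFA with a median of 0.03, and the smallest adjusted p was 0.58. The genes called with LBP had small values here, with 0.08 ± 0.10 for ALDOC, 0.10 ± 0.13 for BNIP3 and 0.03 ± 0.11 for NDRG1.

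After LBP, irradiated LBP against LBP cells, none of the 44 passed either, where 0.142% of all tested features did. DESeq2 called none. An unadjusted p under 0.05 was found for 14, 10 higher and 4 lower. The share of all features at that looser cutoff is not given, so no excess is read from the 14. The 4 lower ones were FAM162A and ENO1 (-0.24 each), LDHA (-0.20) and PKM (-0.18), and the highest were BHLHE40 (1.06 ± 0.38), DDIT4 (0.86 ± 0.34), SLC2A3 (0.74 ± 0.30) and ANKRD37 (0.69 ± 0.27). Without irradiated LBP replicate 3 BHLHE40 stood at 0.33, DDIT4 at 0.23 and SLC2A3 at 0.23. The HIF targets had a median of 0.18 and the glycolytic enzymes of -0.14, with 12 of 15 enzymes below 0, as they were without LBP, where the medians were 0.09 and -0.07. These comparisons share the irradiated LBP or irradiated vehicle libraries with the LBP comparison in irradiated cells.

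**Figure D5:**
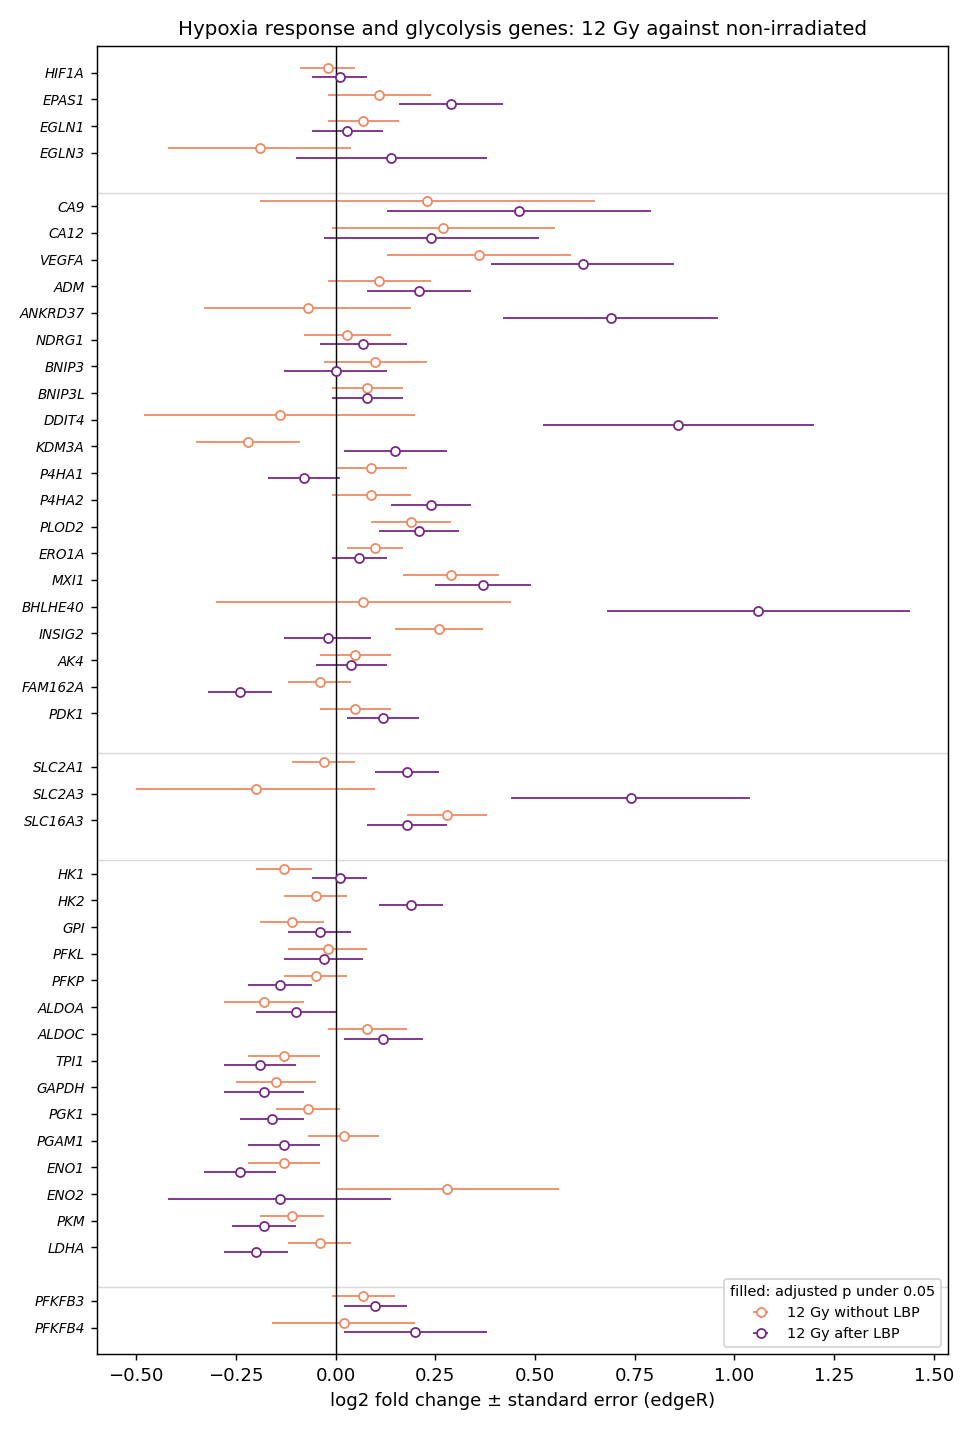
Log2 fold change ± SE of each of the 44 genes with 12 Gy without LBP (orange, irradiated vehicle over vehicle) and after LBP (purple, irradiated LBP over LBP); open points did not reach an adjusted p under 0.05. No point is filled, and the highest value is 1.06 for BHLHE40 after LBP.

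Genes of the same pathways outside the 44 were counted from lists chosen by role, with earlier results of these data known. Of 12 tested regulators of HIF, such as VHL, ARNT and HIF1AN, none passed with LBP in irradiated cells, where 3 had an unadjusted p under 0.05 and DESeq2 called 1 higher and 2 lower. In non-irradiated cells none of the 12 passed, none had an unadjusted p under 0.05, and DESeq2 called none. Calls in either direction were 4.36% of all tested features in irradiated and 0.804% in non-irradiated cells. No call among 12 genes is near those shares. Of 21 tested among the other hypoxia-responsive genes, LBP raised 3 in irradiated cells (14.3%, against 2.79% of all tested features) and 1 in non-irradiated cells (4.76%, against 0.541%). An unadjusted p under 0.05 was found for 10 and 6 of them, DESeq2 called 4 in each setting, and the medians were 0.18 and 0.16. STC2, a secreted glycoprotein also raised by amino acid and endoplasmic reticulum stress, averaged 140 CPM in irradiated LBP and 72.6 CPM in irradiated vehicle cells (0.95 ± 0.13, adjusted p = 0.0022). LOXL2, a collagen cross-linking oxidase, rose there by 0.42 ± 0.11 (adjusted p = 0.048). In non-irradiated cells STC2 stood at 0.74 ± 0.16 (adjusted p = 0.057) and LOXL2 at 0.27 ± 0.13 (adjusted p = 0.40).

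Of 18 other genes of glycolysis and pyruvate use, 1 rose with LBP in irradiated cells, or 5.56% against 2.79% of all tested features. An unadjusted p under 0.05 was found for 4 of the 18, and DESeq2 called 2 higher. The median over the list was 0.02. The gene called by edgeR was HKDC1, a hexokinase-like gene, at 1.79 CPM in irradiated LBP and 0.487 CPM in irradiated vehicle cells (1.89 ± 0.32, adjusted p = 0.0088). In non-irradiated cells none of the 18 passed, where 2 had an unadjusted p under 0.05 and DESeq2 called 1. HKDC1 came close there, at 1.78 CPM in LBP and 0.484 CPM in vehicle cells (1.85 ± 0.39, adjusted p = 0.056). Its counts ran from 15 to 103 over the 10 libraries. None of 16 genes of the tricarboxylic acid cycle passed with LBP in irradiated cells, where 4 had an unadjusted p under 0.05 and DESeq2 called 1 lower, and their median was -0.04. In non-irradiated cells none of the 16 passed, 2 had an unadjusted p under 0.05 and DESeq2 called 1 lower. Of all tested features, edgeR called 4.36% in either direction in irradiated and 0.804% in non-irradiated cells. No call in lists this short is therefore near the share of all features.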

How the data were processed

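RNA of 10 HaCaT libraries in 4 groups was analysed. The submitters' processing notes name HISAT2 and GRCh38 without versions; the sources used here state no counting tool, strand setting or annotation. Whole-number counts per gene and, in a second table, FPKM of the same features were used as deposited by the authors. No column belonged to another sample. Of counts from 1 to 10, 59.7% were even, so both mates of some pairs may have been counted.

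The test was edgeR 4.0.16 (R 4.3.3) on the counts. After filterByExpr (minimum count 10) and TMM scaling, features were fitted by a quasi-likelihood model with 1 mean per group to all 10 libraries (6 residual degrees of freedom, prior 6.06). The LBP contrasts, the radiation contrasts and their interaction were tested, and an adjusted p under 0.05 was called. Intervals are at 95%. FPKM were used for levels per length and, with limma 3.58.1, as an alternative; DESeq2 1.42.0 was another. Same-numbered libraries were not paired, because the labels mark no shared culture. Their deviations from group means correlated at -0.16 to 0.11 over 13 pairs, against -0.14 to 0.16 for differently numbered pairs. In groups of 2 libraries the deviations mirror each other, so the pairs are not independent and the check is weak.

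The 44 genes and the other lists were chosen with earlier results of these data known. Described in full are members called in any contrast and HIF1A, EPAS1, VEGFA, SLC2A1, GAPDH and LDHA; of each other list, up to 3 called genes are named. A result among them is not reported here. Positions and pseudogene names come from GENCODE v29 (GRCh38).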

Additional observations from a re-analysis of the deposited data

How the results depend on the processing

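With LBP in irradiated cells, 7 to 14 members were called higher under the alternatives (other scalings, filters and tests, only the 2 groups compared, the replicate block) and 7 to 13 when 1 library was left out, against 10; none was called lower in any. With LBP in non-irradiated cells the count was 6 in the model of all libraries, 3 with limma on log2(FPKM + 1) without a filter, 9 with DESeq2, and 3 to 7 when 1 library was left out, where a group is left with 1 library that is assumed to vary like the others. No setting called a member with 12 Gy or for the interaction. No call of a member changed sign. With the replicate block the counts were 12 in irradiated and 7 in non-irradiated cells, with ALDOA, PFKL and FAM162A gained. Counts over all features moved more, from 413 higher and 232 lower to between 114 and 707 higher and 50 and 521 lower with LBP in irradiated cells, and from 80 and 39 to between 33 and 191 higher and 5 and 183 lower in non-irradiated cells. The fit with only the groups compared is the same as the model used for the interaction and was not repeated. Depth limits CA9, CA12, EGLN3, ANKRD37 and ENO2, which had at most 132 counts in any library.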
